A study of Mus musculus with 18 samples.

Results

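Matrix metalloproteinases (MMPs) and tissue inhibitors of metalloproteinases (TIMPs) of fibroblasts were examined in mouse embryonic fibroblasts (MEFs) after the serum of the culture medium was exchanged. The 9 genes, Mmp2, Mmp3, Mmp9, Mmp10, Mmp13, Mmp14, Timp1, Timp2 and Timp3, were found by symbol among the 55487 genes of the count table, and all 9 were among the 15381 genes that passed the filter on low counts. The 9 had been chosen by their levels 12 h after either exchange (R-Scm 12 h against Rcm and S-Rcm 12 h against Scm), so every fold change that involves a 12 h group and the culture it came from, or its own 24 h group, is given below as a description without a test.

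MMPs are zinc-dependent endopeptidases that are secreted or membrane-bound, made as inactive zymogens, and able to cut the proteins of the extracellular matrix. The interstitial collagenase MMP13 opens fibrillar collagen, the stromelysins MMP3 and MMP10 cut proteoglycans, fibronectin and laminin and activate other pro-MMPs, the gelatinases MMP2 and MMP9 degrade denatured collagen and basement-membrane collagen, and the membrane-type enzyme MMP14 cuts collagen at the cell surface and activates pro-MMP2. TIMPs bind the active site of MMPs as tight inhibitors, TIMP2 is also the bridge by which MMP14 captures pro-MMP2, and TIMP3 differs from the others in being held in the matrix and in inhibiting several ADAM and ADAMTS proteases. In fibroblasts the collagenase and stromelysin genes are known as low in quiescence and as inducible by serum, growth factors and cytokines through AP-1 (Fos and Jun) sites, whereas Mmp2, Mmp14 and Timp2 are known as steadily expressed.

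RNA-seq had been run on 18 libraries of wild-type MEFs, an established line from a cell repository, in 6 groups of 3. Scm cells were kept in complete medium with S-FBS, the fetal bovine serum in which MEFs were sensitive to ferroptosis, an iron-dependent cell death, and Rcm cells were kept in complete medium with R-FBS, in which they were resistant. R-Scm cells had been changed to Scm after culture in Rcm and were taken at 12 h and at 24 h, and S-Rcm cells had been changed the opposite way with the same times. Scm and Rcm are the cultures without exchange (0 h). No group given fresh medium with its own serum was analysed here, so the change of medium as such and the change of serum cannot be told apart. Nothing in the labels says that replicates were separate cultures, so p-values measure only the spread between these libraries, which may be technical.

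Total counts were 14534906 to 20313715 per library. Of 10 fibroblast markers, 9 had counts in all 18 libraries, with Vim at 2848 to 4526 CPM and Col1a2 at 1271 to 2455 CPM, whereas Lum, a proteoglycan of stromal fibroblasts, was at 0 in 15 libraries. Of those 9, Dcn was low at 1.38 to 10.1 CPM, and Postn ran from 5.66 to 158 CPM between libraries. Among sources of MMPs other than fibroblasts, the summed level was at most 5.46 CPM for 6 macrophage markers, with Adgre1 at 0 in all 18 libraries, and at most 2.51 CPM for 5 neutrophil markers, of which S100a9, Mpo and Csf3r were at 0 throughout. The epithelial, endothelial and osteoblast lists summed to at most 1.53, 3.25 and 0.468 CPM, and the chondrocyte list to 7.91 to 27.3 CPM, carried by Sox9, with Acan at 0 in 14 libraries. The first replicate at 24 h was the library of its group furthest from its partners after either exchange. In R-Scm 24 h replicate 1, 1019 of 15381 genes lay more than 2-fold from the mean of the other 2 replicates, against 821 and 729 genes in those; in S-Rcm 24 h replicate 1 the number was 640, against 446 and 444. The range over the other 12 libraries was 424 to 723 genes, with R-Scm 12 h replicate 3 at the top. By this measure S-Rcm 24 h replicate 1 lay within that range, and all libraries of R-Scm 24 h lay above it. Both first 24 h replicates bear directly on the MMPs, so tests are given with and without them. The choice to leave them out was made after seeing the data. They were the lowest of their groups for Mmp3, Mmp10 and Mmp13, so leaving them out raises the 24 h level of these genes. P-values and counts at 24 h without them are therefore not independent of that choice.

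Mmp13, Mmp3 and Mmp10 lie close together on chromosome 9 of GRCm38, on the plus strand. Mmp13 spans chr9:7272514-7283331, Mmp3 starts 173 kb after the start of Mmp13 (chr9:7445822-7455975) and Mmp10 starts 229.8 kb after it (chr9:7502352-7510240). Of the 10 MMP genes annotated there, Mmp1b was the other that passed the filter, at 1 to 15 counts per library, and Mmp12, Mmp1a, Mmp8, Mmp27, Mmp20 and Mmp7 had at most 9 counts in any library. Raw counts summed by group were higher in R-Scm 12 h than in Rcm for Mmp1b (36 against 18), Mmp1a (18 against 3), Mmp8 (13 against 2), Mmp27 (14 against 4) and Mmp12 (10 against 0). In S-Rcm 12 h against Scm these genes had 23 against 21, 6 against 1, 1 against 0, 11 against 3 and 4 against 1. Mmp20 and Mmp7 were at 0 throughout. The 250 bases before the RefSeq start of Mmp13, Mmp3 and Mmp10 (GRCm38.p6, plus strand) are shown because all 3 hold an AP-1 site. They are also the 3 of the 9 genes with the largest fold changes at 12 h. Those comparisons led to the choice of the genes, and the 3 lie in the same cluster. Their matches are therefore not separate observations, and nothing is read from this overlap. Capitals mark the AP-1 site, TGAGTCA or its reverse complement TGACTCA.
Mmp13, chr9:7272264-7272513: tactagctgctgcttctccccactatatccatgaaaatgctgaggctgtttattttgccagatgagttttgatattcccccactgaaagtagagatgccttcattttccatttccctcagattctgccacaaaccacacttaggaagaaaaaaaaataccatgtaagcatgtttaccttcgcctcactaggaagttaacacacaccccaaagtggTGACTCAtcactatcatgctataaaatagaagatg
Mmp3, chr9:7445572-7445821: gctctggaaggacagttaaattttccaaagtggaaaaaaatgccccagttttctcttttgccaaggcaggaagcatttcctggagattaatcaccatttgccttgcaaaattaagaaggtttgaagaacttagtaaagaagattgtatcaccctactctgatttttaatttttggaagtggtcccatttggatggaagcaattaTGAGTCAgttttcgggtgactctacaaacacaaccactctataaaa
Mmp10, chr9:7502092-7502341: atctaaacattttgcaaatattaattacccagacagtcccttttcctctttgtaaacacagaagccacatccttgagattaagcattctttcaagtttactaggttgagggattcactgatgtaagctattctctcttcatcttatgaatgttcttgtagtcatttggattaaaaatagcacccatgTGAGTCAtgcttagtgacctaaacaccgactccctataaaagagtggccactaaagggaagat
The site lay 35 bases before the start in Mmp13, 46 in Mmp3 and 63 in Mmp10. Both strands were searched, and an AP-1 site was in 4.46% of 32817 promoters of this length and in 3.31% of the 12995 promoters of tested genes. A TATA box (TATAAA or its reverse complement TTTATA) was also in all 3, as in 12.4% of all promoters, and the Runx site AACCACA (or its reverse complement TGTGGTT) in Mmp13 alone of the 3, as in 4.39% of all promoters. The windows of Mmp14, Timp1, Timp2 and Timp3 held none of these letters, and Mmp2 and Mmp9 were not matched among the promoter sequences. These are matches of letters, and no factor binding was measured.

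Mmp13, the interstitial collagenase, was higher 12 h after either exchange. The CPM of Mmp13 was 8.86, 9.38 and 6.76 in Rcm and 55.9, 60.7 and 90.4 in R-Scm 12 h, and it was 8.88, 8.80 and 8.45 in Scm and 46.1, 52.6 and 43.1 in S-Rcm 12 h. No library of a 12 h group overlapped with the culture it came from, and the lowest 12 h library was far above every library at 0 h or 24 h. Its log2 fold change was 3.05 ± 0.49 (SE, n = 3 and 3) after the change to Scm and 2.44 ± 0.48 after the change to Rcm, or 8.28-fold and 5.43-fold between group means. In bulk RNA, more cells that express a gene and more RNA per cell cannot be told apart.

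Mmp3, stromelysin-1, had the highest level of the MMPs per exon length. In Rcm it stood at 163, 178 and 153 CPM and in R-Scm 12 h at 864, 874 and 1488 CPM, the last in the library that stood at the top of its group for all 3 genes of the cluster. In Scm the CPM of Mmp3 was 206, 224 and 223 and in S-Rcm 12 h it was 686, 738 and 708. The 12 h libraries were again all above both steady cultures. The log2 fold change was 2.71 ± 0.35 after the change to Scm and 1.70 ± 0.34 after the change to Rcm.

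Mmp10, stromelysin-2, followed with the lowest of the 3 changes after the move to Rcm. Its CPM was 7.05, 6.19 and 7.47 in Rcm against 35.6, 38.6 and 66.8 in R-Scm 12 h, and 11.1, 9.71 and 11.2 in Scm against 22.2, 24.0 and 24.6 in S-Rcm 12 h. The log2 fold change was 2.76 ± 0.49 in the former and 1.14 ± 0.47 in the latter. Mmp10 and Mmp3 are close relatives in sequence, and how reads with several alignments were counted is not given in the sources used here. Without R-Scm 12 h replicate 3 the log2 fold changes against Rcm were 2.81 for Mmp13, 2.40 for Mmp3 and 2.43 for Mmp10.

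Markers of other cells that can make MMPs were near 0, except Sox9 of the chondrocyte list, and were not even across the groups at 12 h. The macrophage list, of which Cd68 carried nearly all counts, summed to 3.56 to 5.46 CPM in R-Scm 12 h and to 2.29 to 3.53 CPM in the other 5 groups. The neutrophil list, of which S100a8 alone had counts there, summed to 1.08 to 2.51 CPM in R-Scm 12 h and 0.133 to 0.917 CPM in the others. For the endothelial list the sums were 0.602 to 3.25 CPM in R-Scm 12 h and 0.139 to 1.48 CPM in the others. The chondrocyte list, in which Sox9 stood at 7.73 to 27.0 CPM, summed to 7.91 to 13.8 CPM in R-Scm 12 h and 15.7 to 19.5 CPM in S-Rcm 12 h, against 15.6 to 17.5 CPM in Rcm and 20.9 to 27.3 CPM in Scm. Their part in the levels of the 3 genes was not tested.

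**Figure D1:**
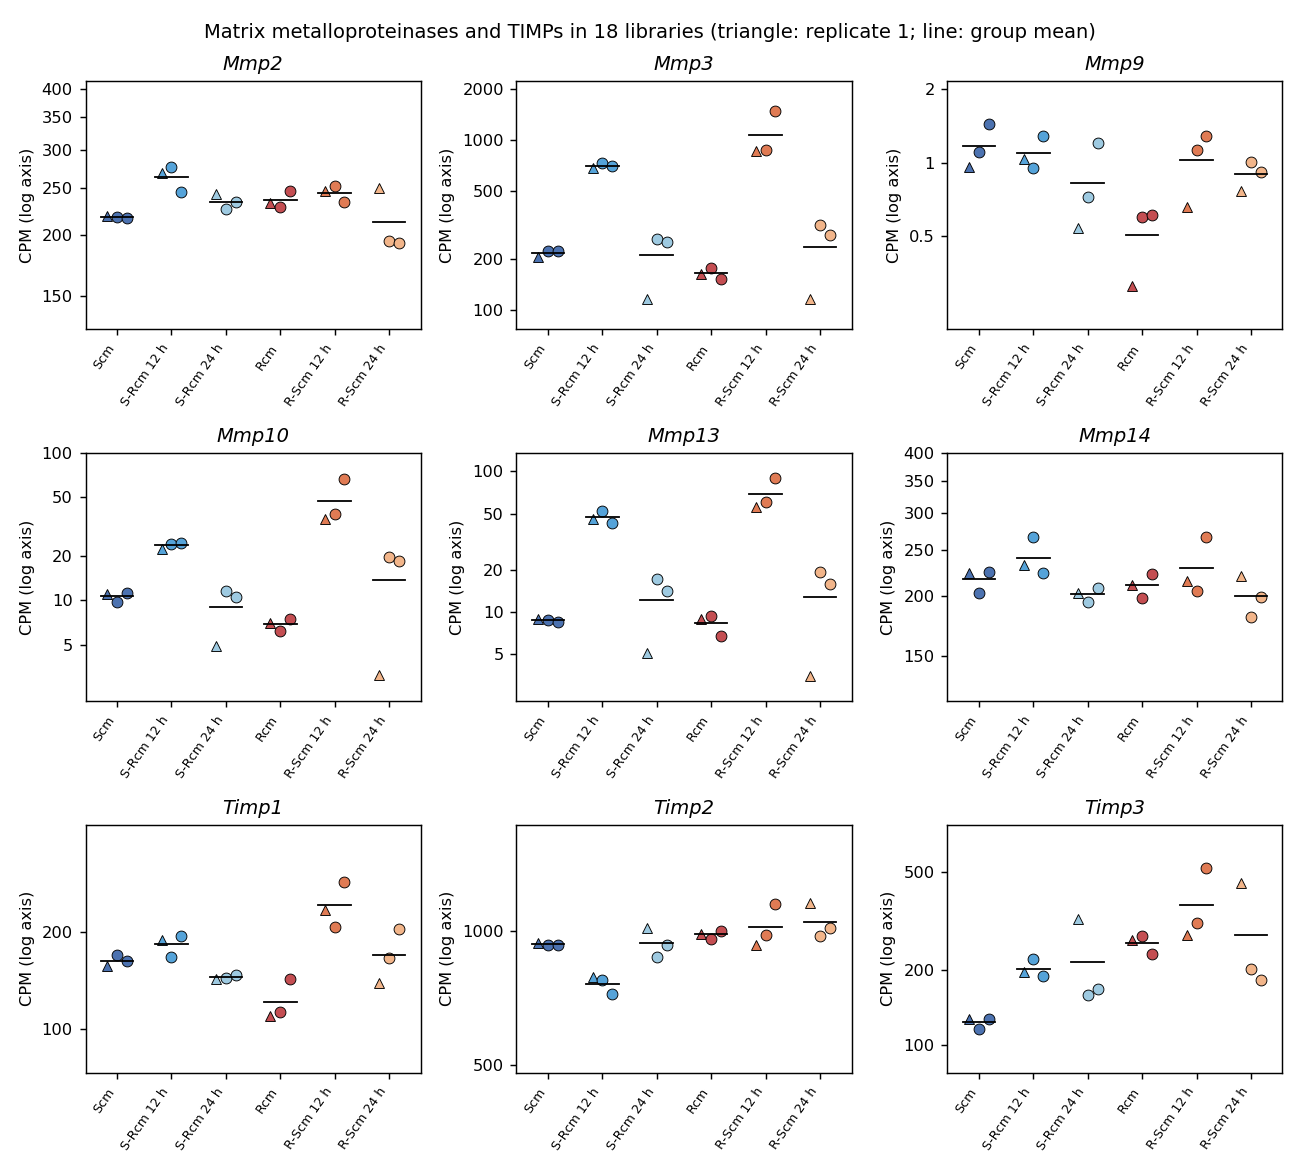
CPM of the 9 genes (log axis, 1 panel per gene) in each of the 18 libraries by group; triangles are replicate 1, circles replicates 2 and 3, and lines the group means. Mmp3, Mmp10 and Mmp13 are higher in both 12 h groups than in Scm and Rcm, and the 24 h triangles lie below the 24 h circles for these 3 genes and above them for Timp3.

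The inhibitors did not move as a block at 12 h. Timp1, the inducible inhibitor, was at 110.1, 113 and 142 CPM in Rcm and 233, 207 and 285 CPM in R-Scm 12 h, which did not overlap and gave a log2 fold change of 0.99 ± 0.14. After the opposite exchange Timp1 was at 156, 169 and 162 CPM in Scm and 188, 166 and 194 CPM in S-Rcm 12 h, where the libraries overlapped (log2 fold change 0.17 ± 0.14). The direct test between the 12 h groups is given below.

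Timp3, the matrix-bound inhibitor, was higher than at the start after either exchange. It was at 265, 275 and 233 CPM in Rcm and 278, 311 and 521 CPM in R-Scm 12 h (log2 fold change 0.52 ± 0.33), and at 127, 115 and 128 CPM in Scm and 197, 223 and 190.4 CPM in S-Rcm 12 h (0.72 ± 0.34). The groups did not overlap in either case, although in R-Scm 12 h much of the mean came from replicate 3. Timp3 lies inside Syn3 on the opposite strand, with 1733 exonic bases in common, and whether the counting used strand is not given in the sources used here.

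Timp2, the steady inhibitor with the highest level of the 9 genes in steady culture, was at 986, 962 and 1002 CPM in Rcm and 933, 979 and 1149 CPM in R-Scm 12 h, which overlapped (log2 fold change 0.05 ± 0.09). In the other direction it was lower, at 941, 929.8 and 931 CPM in Scm and 788, 775 and 721 CPM in S-Rcm 12 h (log2 fold change -0.29 ± 0.09, no overlap). Timp2 thus had its lowest group mean, 761 CPM, in S-Rcm 12 h.

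The gelatinase gene Mmp2 and the membrane-type enzyme gene Mmp14 were flatter. Mmp2 had group means of 213 to 264 CPM over the 6 groups, a 1.24-fold range, and Mmp14 of 201 to 241 CPM, a 1.20-fold range. At 12 h Mmp2 was at 246, 253 and 235 CPM in R-Scm against 233, 229 and 246 CPM in Rcm, which overlapped, and at 268, 277 and 246 CPM in S-Rcm against 219, 219 and 217 CPM in Scm, which did not (log2 fold change 0.27 ± 0.09). Mmp14 overlapped with the culture it came from in both directions, with log2 fold changes of 0.12 ± 0.10 and 0.15 ± 0.10. Mmp9, the inducible gelatinase, was near the limit of detection at 5 to 22 counts per library, and its log2 fold changes of 0.99 ± 0.37 after the change to Scm and -0.09 ± 0.34 after the change to Rcm rest on these few counts.

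Past 0.58 in log2 fold change, in either direction and with no test, were 5 of the 9 after the change to Scm (Mmp3, Mmp9, Mmp10, Mmp13 and Timp1), as were 11.7% of all genes tested, and 4 after the change to Rcm (Mmp3, Mmp10, Mmp13 and Timp3), as were 11.2%. Because these comparisons led to the choice of the genes, nothing is read from the counts. The libraries did not overlap for 6 of the 9 in each comparison, where 23.4% and 26.4% of all genes did not overlap. The median log2 fold change of the 9 was 0.99 after the change to Scm and 0.27 after the change to Rcm, and that of all genes tested was -0.0077 and 0.019.

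Levels can be set beside each other only per exon length, as CPM per kilobase of exon (RPKM). On that scale Timp2 led in steady Scm culture with 239.7 ± 1.58 RPKM (SD, n = 3), followed by Timp1 with 183 ± 7.09, Mmp3 with 121 ± 5.59, Mmp2 with 64.8 ± 0.361 and Mmp14 with 36.5 ± 2.08. Timp3 stood at 15.1 ± 0.830, Mmp10 at 6.20 ± 0.489, Mmp13 at 3.26 ± 0.0855 and Mmp9 at 0.331 ± 0.0695 RPKM. The order in Rcm was the same for the first 5, with Mmp3 at 91.5 ± 6.98 and Mmp2 at 70.0 ± 2.67 RPKM.

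At 12 h Mmp3 passed both inhibitors and took the highest level of the 9 genes in either exchange. It reached 597 ± 198 RPKM in R-Scm 12 h, where Timp1 was at 272 ± 44.7 and Timp2 at 262 ± 29.2, which do not differ beyond their spread, and 394 ± 14.3 RPKM in S-Rcm 12 h, where Timp1 was at 206 ± 16.4 and Timp2 at 195 ± 9.13, again within their spread. Mmp13, despite the largest fold change, was at 25.8 ± 7.0 RPKM in R-Scm 12 h beside Mmp10 at 27.3 ± 9.98, and at 17.7 ± 1.81 RPKM in S-Rcm 12 h beside Mmp10 at 13.7 ± 0.741.

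The 6 MMPs summed per length were below the 3 TIMPs in steady culture and above them at 12 h. The ratio of the MMP sum to the TIMP sum was 0.486 ± 0.0283 in Rcm (SD, n = 3) and 1.30 ± 0.169 in R-Scm 12 h, and 0.530 ± 0.00863 in Scm and 1.28 ± 0.0880 in S-Rcm 12 h. At 24 h it was 0.491 ± 0.131 in R-Scm and 0.540 ± 0.140 in S-Rcm, which averages a split between the libraries. The ratio was 0.352, 0.613 and 0.508 in R-Scm 24 h and 0.380, 0.639 and 0.601 in S-Rcm 24 h, against 0.454 to 0.540 over the 6 steady libraries, so replicate 1 lay below that range and 3 of the other 4 libraries above it. Mmp3 alone made up 44.8% of the MMP sum in Rcm against 77.8% in R-Scm 12 h, and 52.1% in Scm against 72.4% in S-Rcm 12 h. These ratios are of mRNA levels and say nothing of zymogen activation or protein.

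**Figure D2:**
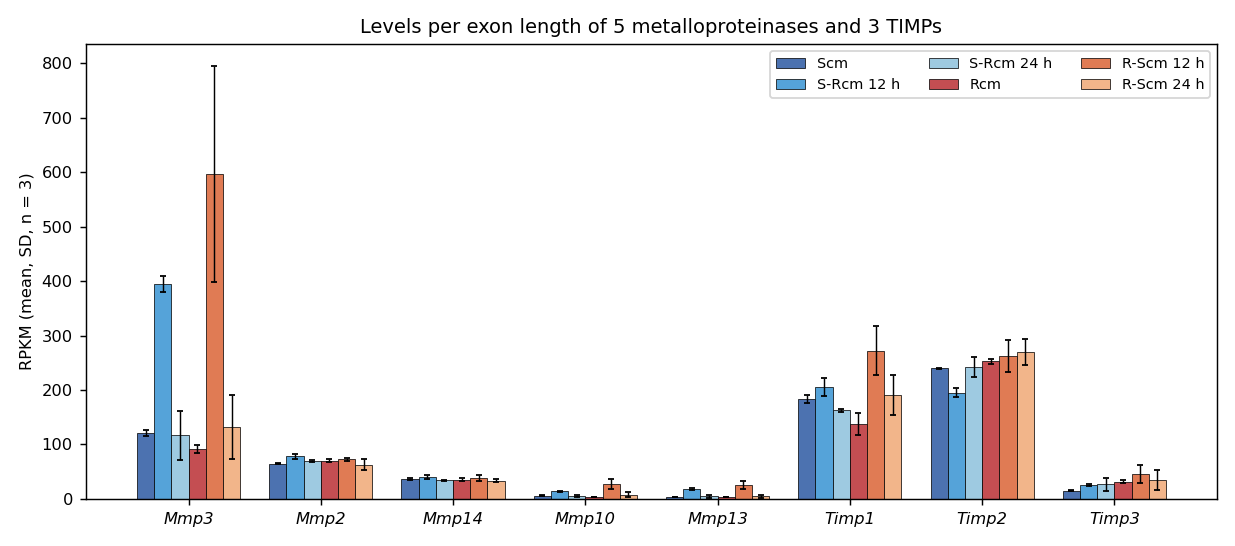
Mean RPKM by group (bars, linear axis from 0) of 5 MMPs and 3 TIMPs, with SD over 3 libraries as error bars; Mmp9 is left out because all of its means are under 0.4 RPKM. Mmp3 is the tallest bar in both 12 h groups, at 597 RPKM in R-Scm 12 h and 394 RPKM in S-Rcm 12 h, whereas Timp2 is the tallest in Scm and Rcm.

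The 2 directions were compared directly at 12 h. This difference was not itself used in choosing the genes, but both groups consist of 12 h libraries that led to the choice. The p-values and counts of this comparison are therefore not independent of that choice. Between R-Scm 12 h and S-Rcm 12 h, 6 of the 9 had no overlap (Mmp3, Mmp10, Mmp13, Timp1, Timp2 and Timp3, each with the higher values in R-Scm 12 h), where 27.8% of all genes did not overlap. Differentially expressed genes (DEGs) were past 0.58 in log2 fold change in either direction and under 0.05 in edgeR's quasi-likelihood p after Benjamini-Hochberg adjustment. None of the 9 was a DEG, against 2.63% of all genes. At an unadjusted p under 0.05 there were 4 (21.4% of all genes), and DESeq2 called 0 (3.86%). Timp2 had an adjusted p of 0.0153 with a log2 difference of 0.42 ± 0.09, which is below the fold threshold. Mmp10 differed by 0.99 ± 0.45 (adjusted p = 0.222), Timp3 by 0.86 ± 0.33 (adjusted p = 0.162), Mmp3 by 0.60 ± 0.33 (adjusted p = 0.308) and Timp1 by 0.40 ± 0.14 (adjusted p = 0.109). Without the first 24 h replicates, which are in neither group, 3 of the 9 were DEGs by edgeR, against 3.58% of all genes. They were Mmp10 (0.99 ± 0.18, adjusted p = 0.00522), Timp3 (0.86 ± 0.17, adjusted p = 0.00958) and Mmp3 (0.60 ± 0.16, adjusted p = 0.0381). Their log2 differences were the same as with all libraries, and only the standard errors were smaller, so nothing is read from these calls. For all 3 the highest of the 6 libraries was R-Scm 12 h replicate 3. With all other libraries but without it, the differences were 0.65 for Mmp10, 0.54 for Timp3 and 0.29 for Mmp3, and none was a DEG.

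By 24 h the collagenase and the stromelysins were below every 12 h library of their exchange, but spread widely. Mmp3 was at 117, 318 and 275 CPM in R-Scm 24 h and 116, 264 and 251 CPM in S-Rcm 24 h. Mmp10 was at 3.12, 19.8 and 18.6 CPM in R-Scm 24 h and 4.94, 11.6 and 10.6 CPM in S-Rcm 24 h. Mmp13 was at 3.48, 19.2 and 15.6 CPM in R-Scm 24 h and 5.06, 17.0 and 14.2 CPM in S-Rcm 24 h. Replicate 1 was the lowest for all 3 genes in both groups, and replicates 2 and 3 lay close to each other. The mean of replicates 2 and 3 was 2.54 times replicate 1 for Mmp3, 6.15 times for Mmp10 and 5.01 times for Mmp13 in R-Scm 24 h, and 2.22, 2.24 and 3.08 times in S-Rcm 24 h. From 12 h to 24 h the log2 fold changes, with all libraries, were -2.43 ± 0.47 for Mmp13, -2.18 ± 0.34 for Mmp3 and -1.76 ± 0.46 for Mmp10 in R-Scm, and -1.97 ± 0.47, -1.76 ± 0.34 and -1.39 ± 0.47 in S-Rcm.

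Timp3 split the other way at 24 h. It was at 455, 202 and 182 CPM in R-Scm 24 h and 322, 159 and 168 CPM in S-Rcm 24 h, so replicate 1 was 2.37 and 1.97 times the mean of its partners. Timp1 was at 139, 166 and 204 CPM in R-Scm 24 h and 143, 144 and 147 CPM in S-Rcm 24 h, and Timp2 at 1158, 977 and 1016 CPM and 1018, 877 and 929.9 CPM. For Timp1 the first replicate was lowest in R-Scm 24 h, and for Timp2 it was highest in both groups. Mmp2 was at 250.3, 195 and 193 CPM in R-Scm 24 h and 243, 227 and 234 CPM in S-Rcm 24 h. Mmp14 was at 221, 181 and 199.8 CPM and at 204, 194 and 208 CPM. For these 2 genes the first replicate was high in R-Scm 24 h and within 1.06-fold of its partners in S-Rcm 24 h.

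Against Rcm, R-Scm 24 h held no DEG among the 9, where 0.377% of all genes tested were DEGs. At an unadjusted p under 0.05, as for 10.3% of all genes, there were 2, Timp1 (log2 fold change 0.48 ± 0.14, adjusted p = 0.152 by edgeR) and Mmp9 (0.81 ± 0.37, adjusted p = 0.469), and DESeq2 called 0 (1.07%). The count depended on R-Scm 24 h replicate 1: without R-Scm 24 h replicate 1 it was 2, Mmp10 and Timp1, against 3.19% of all genes, and without both first 24 h replicates it was 4, against 3.4% of all genes. In the latter fit Mmp10 was higher by 1.47 ± 0.21 (adjusted p = 0.000931), Mmp13 by 1.07 ± 0.20 (adjusted p = 0.00565), Mmp3 by 0.85 ± 0.18 (adjusted p = 0.0124) and Timp1 by 0.61 ± 0.14 (adjusted p = 0.0200). R-Scm 24 h replicate 1 was the lowest of its group for all 4 genes. These p-values and counts are therefore not independent of the choice to leave it out. The Rcm libraries had also been the baseline in choosing the genes. With all libraries Mmp10 was at 1.0 ± 0.48 (adjusted p = 0.499), Mmp13 at 0.62 ± 0.48 (adjusted p = 0.725) and Mmp3 at 0.52 ± 0.33 (adjusted p = 0.649). Timp3 changed sign, from 0.12 ± 0.33 with all libraries to -0.42 ± 0.20 (adjusted p = 0.272) without them.

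Against Scm, S-Rcm 24 h held no DEG among the 9 (0.338% of all genes), with 1 at an unadjusted p under 0.05 (8.11% of all genes), Timp3, and 0 by DESeq2 (0.952%). Timp3 was higher by 0.81 ± 0.34 on the log2 scale (adjusted p = 0.515 by edgeR) and did not overlap with Scm. Mmp9 was at -0.50 ± 0.35 (adjusted p = 0.806), and Mmp13 at 0.47 ± 0.48 (adjusted p = 0.906). Without both first 24 h replicates the count was again 0 (0.325% of all genes), with Mmp13 at 0.84 ± 0.20 (adjusted p = 0.0904) and Timp3 at 0.41 ± 0.19 (adjusted p = 0.630). The 24 h values overlapped with Scm for 6 of the 9 genes. Mmp2, Timp1 and Timp3 did not, where 19.5% of all genes did not.

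**Figure D3:**
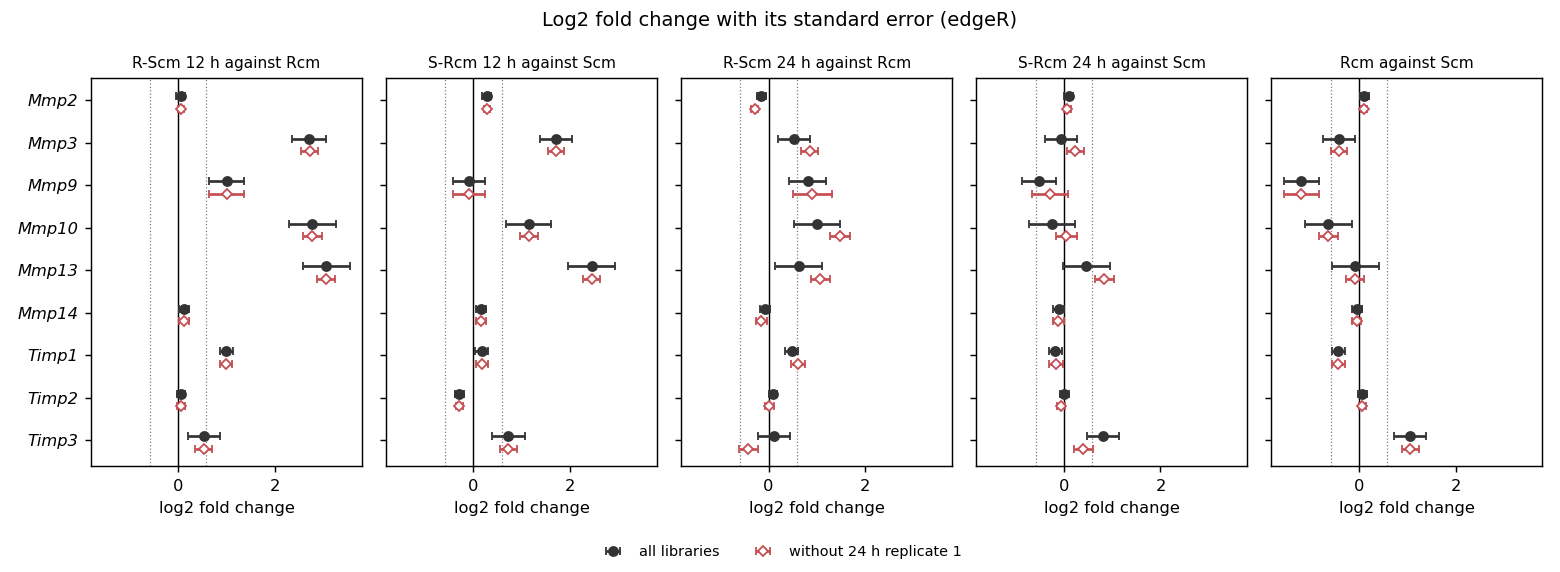
Log2 fold change (points) with its standard error (bars) of the 9 genes in 5 comparisons by edgeR, for all 18 libraries (filled circles) and without the first 24 h replicate of either exchange (open diamonds); dotted lines mark 0.58 in either direction. The error bars of Mmp3, Mmp10, Mmp13 and Timp3 are shorter without these libraries, and at 24 h Mmp10 moves from 1.0 to 1.47 in R-Scm against Rcm.

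Levels at 24 h were also set against the culture whose serum the cells had been moved to. R-Scm 24 h against Scm held no DEG among the 9 (0.592% of all genes), 1 at an unadjusted p under 0.05 (10.1%) and 1 by DESeq2 (1.25%), in each case Timp3. That gene was higher than in Scm by 1.18 ± 0.34 (adjusted p = 0.178 by edgeR), and by 0.64 ± 0.19 (adjusted p = 0.175) without the first 24 h replicates. In that reduced fit 1 of the 9 was a DEG, Mmp13, higher by 1.0 ± 0.20 (adjusted p = 0.0284), against 0.683% of all genes. S-Rcm 24 h against Rcm held none either (0.221% of all genes), with 0 of the 9 at an unadjusted p under 0.05 (7.48%) and 0 by DESeq2 (0.762%), and the reduced fit again called Mmp13 (0.91 ± 0.20, adjusted p = 0.0490), against 0.721% of all genes. These comparisons share the Scm and Rcm libraries with those above and are not independent of them. The Mmp13 calls come from fits without the lowest Mmp13 library of each 24 h group, so nothing is read from these calls.

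Whether the change at 24 h differed between the directions was tested as an interaction, the fold change of R-Scm 24 h over Rcm less that of S-Rcm 24 h over Scm. No member passed an adjusted p of 0.05 by edgeR, where 1.43% of all genes did, with 2 at an unadjusted p under 0.05 (Timp1 and Mmp9, where 12.6% of all genes were) and 1 by DESeq2 (Timp1, where 3.25% were). The difference was 0.65 ± 0.19 for Timp1 (adjusted p = 0.129), 1.31 ± 0.51 for Mmp9 (adjusted p = 0.277), 1.24 ± 0.67 for Mmp10 (adjusted p = 0.483) and -0.69 ± 0.47 for Timp3 (adjusted p = 0.601). Without R-Scm 24 h replicate 1 it passed for 3, Mmp2 (-0.39, adjusted p = 0.0314), Mmp10 (1.71, adjusted p = 0.0177) and Timp1 (0.77, adjusted p = 0.0204), where 5.49% of all genes passed. Without both first replicates it passed for 2, Mmp10 (1.42 ± 0.31, adjusted p = 0.0147) and Timp1 (0.77 ± 0.20, adjusted p = 0.0417), where 4.52% of all genes passed. R-Scm 24 h replicate 1 was the lowest of its group for Mmp10 and Timp1 and the highest for Mmp2. Leaving it out moves each difference in the direction of its call, so these calls are not independent of which library was left out.

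In steady culture Timp3 had 2.09 times the mean level in Rcm that it had in Scm. Its values were 265, 275 and 233 CPM in Rcm and 127, 115 and 128 CPM in Scm, with a log2 difference of 1.06 ± 0.34 (adjusted p = 0.125 by edgeR). None of the 9 was a DEG in the fit of all libraries, where 2.3% of all genes were, with 3 at an unadjusted p under 0.05 (Mmp9, Timp1 and Timp3, against 16.2% of all genes) and 1 by DESeq2 (Timp3, against 3.31%). Without the first 24 h replicates Timp3 was a DEG (1.06 ± 0.18, adjusted p = 0.00215), alone of the 9, against 3.28% of all genes. Timp3 thus had the same fold change in both fits, and the standard error differed.

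Timp1 was at 110.1, 113 and 142 CPM in Rcm against 156, 169 and 162 CPM in Scm (-0.42 ± 0.14, adjusted p = 0.133), with no overlap. Mmp9 was at 0.312, 0.599 and 0.610 CPM in Rcm and 0.963, 1.11 and 1.44 CPM in Scm, or 5 to 12 counts against 16 to 21 (-1.18 ± 0.37, adjusted p = 0.111). Mmp3 and Mmp10 also did not overlap, with lower values in Rcm (-0.40 ± 0.33, adjusted p = 0.562, and -0.63 ± 0.48, adjusted p = 0.536). Mmp13 overlapped between the steady cultures (-0.07 ± 0.49, adjusted p = 0.959). In all, 7 of the 9 genes did not overlap between Rcm and Scm, where 23.9% of all genes did not, with Mmp2, Timp2 and Timp3 at higher values in Rcm and Mmp3, Mmp9, Mmp10 and Timp1 at lower values.

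Genes around the MMPs were taken from 7 lists of 88 genes in all, of which 68 passed the filter. The lists were chosen with earlier results of these data known, so here and below their shares beside those of all genes are descriptions. In R-Scm 12 h against Rcm, 6 of the 68 were DEGs, 3 higher and 3 lower (8.82% of the list, against 2.74% of all genes, 1.51% higher and 1.22% lower). Plau, the urokinase that turns plasminogen into plasmin, an activator of pro-MMPs, rose from 29.3 to 68.5 CPM (log2 fold change 1.22 ± 0.21, adjusted p = 0.00327 by edgeR). Adam19, a membrane-anchored metalloproteinase, rose by 1.10 ± 0.19 (adjusted p = 0.00307), and Mmp24, a membrane-type MMP, by 1.58 ± 0.42 from 0.743 to 2.28 CPM (adjusted p = 0.0404).

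The 3 that fell were Mrc2, the collagen uptake receptor (-0.66 ± 0.11, adjusted p = 0.00303), Lrp1, the scavenger receptor that clears MMPs and TIMPs (-0.64 ± 0.14, adjusted p = 0.0157), and Adamts1 (-0.72 ± 0.19, adjusted p = 0.0383). In S-Rcm 12 h against Scm 1 of the 68 was a DEG (1.47%, against 0.858% of all genes), Itgb3, an integrin chain to which MMP2 can bind (0.86 ± 0.18, adjusted p = 0.0248). In that comparison Plau was at -0.01 on the log2 scale (adjusted p = 0.989). Whether its change differs between the exchanges was not tested. That call of Itgb3 was lost in 5 of the 6 fits without 1 library of either group, in which 0.229% to 0.484% of all genes were DEGs. Without the first 24 h replicates the DEGs at 12 h were 12 and 5 of the pathway genes, against 3.74% and 1.65% of all genes, and the 6 became 3 without Rcm replicate 1 (1.91% of all genes).

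**Figure D4:**
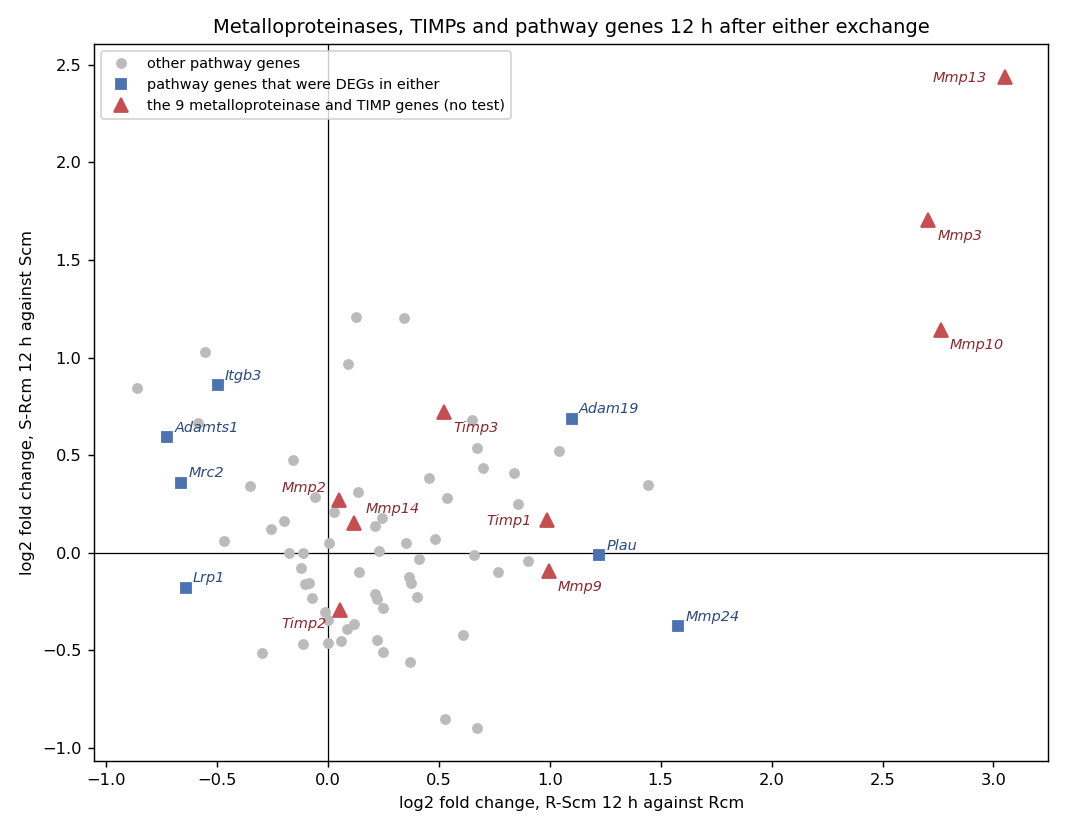
Log2 fold change 12 h after the change to Scm (horizontal axis, R-Scm 12 h against Rcm) and 12 h after the change to Rcm (vertical axis, S-Rcm 12 h against Scm) for the 9 genes (triangles, no test), pathway genes that were DEGs in either comparison (squares) and other pathway genes (circles). Mmp3, Mmp10 and Mmp13 lie at the upper right, Plau and Mmp24 lie to the right at or below 0 on the vertical axis, and Il6 is not drawn because all Scm libraries held 0 counts of it.

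Transcription factors known at MMP promoters, a list of 17 genes all of which passed the filter, held no DEG at 12 h in either exchange. At an unadjusted p under 0.05 there were 5 after the change to Scm and 8 after the change to Rcm, against 17.6% and 14.3% of all genes, and DESeq2 called 0 in each, against 3.84% and 1.89%. The 8 were all lower than in Scm, and the 5 were higher than in Rcm save Etv5, which was lower. The median log2 fold change of the 17 was 0.22 after the change to Scm and -0.23 after the change to Rcm. With no fold threshold 1 of the 17 had an adjusted p under 0.05 in each exchange, the AP-1 gene Fosl2 after the change to Scm (0.40 ± 0.08, adjusted p = 0.00885) and the ETS gene Etv5 after the change to Rcm (-0.52 ± 0.11, adjusted p = 0.0321). Fosl2 stood at 409 to 417 CPM in R-Scm 12 h and 306 to 328 CPM in Rcm, and also had an adjusted p under 0.05 in R-Scm 24 h against Rcm (0.47 ± 0.08, adjusted p = 0.0149) and in Rcm against Scm (-0.38 ± 0.08, adjusted p = 0.0186). These 2 genes and Fosl1 were named after their values were seen. The AP-1 gene Fosl1 was at 0.61 ± 0.28 (adjusted p = 0.276 by edgeR) after the change to Scm and at -0.42 ± 0.28 (adjusted p = 0.544) after the change to Rcm. The other Fos and Jun genes of the list did not move together. In the same order, Fos was at 0.70 and 0.44, Fosb at 0.67 and -0.90, and Junb at 0.41 and -0.03. Jun was at -0.12 and -0.08, and Jund at -0.18 and 0.00098. None of these had an adjusted p under 0.05 in either exchange at 12 h. Between the steady cultures Etv4, an ETS factor, was lower in Rcm (-0.64 ± 0.14, adjusted p = 0.0227). Of the 13 secreted inducers, Il1a, Il1b and Tnf did not pass the filter, at no more than 10, 2 and 1 counts per library. Among the 10 that did, none was a DEG at 12 h in either exchange, with 5 and 3 at an unadjusted p under 0.05 and 2 and 1 by DESeq2.

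Steady Rcm differed from Scm in 4 of the 68 genes (5.88%, against 2.3% of all genes). Adamts5 and Adamts1, secreted aggrecanases of the ADAMTS family, were both higher in Rcm, Adamts5 at 26.9 against 6.93 CPM (1.95 ± 0.33, adjusted p = 0.00356 by edgeR) and Adamts1 at 91.7 against 33.8 CPM (1.44 ± 0.19, adjusted p = 0.000462). Areg, an EGF receptor ligand, was lower in Rcm (-1.22 ± 0.21, adjusted p = 0.00336), as was Etv4. At 24 h after the change to Rcm, 2 of the 68 were DEGs (2.94%, against 0.338% of all genes), Adamts1 (1.15 ± 0.19, adjusted p = 0.0155) and Itgb3 (0.95 ± 0.18, adjusted p = 0.0223). Each of the 6 fits without 1 library of either group lost at least 1 of these calls, with 0 or 1 left, and in these fits 0.0382% to 0.178% of all genes were DEGs. At 24 h after the change to Scm none was, against 0.377% of all genes, with 20 at an unadjusted p under 0.05 (10.3% of all genes) and 0 by DESeq2 (1.07%), and 12 were without R-Scm 24 h replicate 1 (3.19%). Of the other inhibitors, Timp4, Tfpi2 and A2m were at 0 in all libraries and Reck, a membrane-anchored inhibitor, was at 8.31 to 10.4 CPM in the 2 steady groups and the 12 h groups with no DEG.

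Over the 18 libraries the pattern of log2 CPM most like that of Mmp13 was that of Mmp3 (Pearson's r = 0.986), then Mmp10 (0.952), Leo1 (0.930), Pi15 (0.913) and Gfm1 (0.903), among 13534 genes with a mean of at least 1 CPM. For Mmp3 the same 5 places went to Mmp13, Mmp10 (0.957), Leo1 (0.927), Gfm1 (0.917) and Pi15 (0.915). Timp1 followed a different set, Cgref1 (0.948), Eif2b1 (0.927), Tbc1d2 (0.916), Ttll11 (0.909) and Ass1 (0.904). These values are descriptions over libraries that fall into 6 groups, and they share the split at 24 h. The 12 h libraries also led to the choice of the 9 genes, so likeness among the 9 is partly set by that choice. Among the 9 genes themselves Timp1 was closer to Mmp10 (r = 0.867) and Mmp3 (0.828) than Timp3 was to Mmp3 (0.205) or Timp2 to Mmp3 (-0.336). Pi15, a secreted protein, was at 1.85 CPM in Rcm and 6.72 CPM in R-Scm 12 h, and went from 2.34 CPM (Scm) to 4.66 CPM (S-Rcm 12 h) by group mean. Leo1, a subunit of the PAF1 transcription complex, moved less, from 59.0 to 86.1 CPM and from 64.4 to 74.5 CPM.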

How the data were processed

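The authors deposited raw counts of reads per gene, from paired-end mRNA libraries aligned to GRCm38. The counting tool and its strand setting are not given in the sources used here. Columns were matched to samples by the description in the labels. Counts as deposited were fitted with edgeR 4.0.16 (R 4.3.3) across all 18 libraries (TMM scaling, filterByExpr, robust quasi-likelihood test, 12 residual degrees of freedom), with Benjamini-Hochberg adjustment over 15381 genes. CPM used TMM-scaled totals, and RPKM divided CPM by the union exon length of GENCODE M21. DESeq2 1.42.0, RLE scaling, other filters, compared groups alone, a replicate block and leaving out each library were alternatives. The test was checked on simulated data. The 9 genes and the lists were chosen with earlier results of these data known. All 9 were named, as was every list gene that was a DEG in a main comparison, and the 5 genes most like Mmp13, Mmp3 and Timp1. Replicates differed by more than sampling noise (chi-square per degree of freedom 10.2 to 45.0). Promoters came from RefSeq (GRCm38.p6), matched for 7 of 9 genes. 1 gene of the pathway lists is not reported here and is left out of the list counts.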

Additional observations from a re-analysis of the deposited data

How the results depend on the processing

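In the comparisons given without a test, 12 h after either exchange, log2 fold changes with libraries left out ranged after the change to Scm from 2.81 to 3.18 (Mmp13), 2.40 to 2.84 (Mmp3), 2.43 to 2.93 (Mmp10) and 0.86 to 1.12 (Timp1), and after the change to Rcm from 2.35 to 2.5 (Mmp13), 1.67 to 1.73 (Mmp3) and 1.08 to 1.19 (Mmp10). Among the 9 genes, DEG counts in the tested comparisons moved as follows. In this section, nothing is read from a count that has no share of all genes beside it. In Rcm against Scm the count of 0 was 2 with the compared groups alone and 1 by DESeq2 (3.31% of all genes). It was 1 without the first 24 h replicates of both exchanges (3.28%). In R-Scm 24 h against Rcm it ranged from 0 to 2 without single libraries (0.0891% to 3.19% of all genes) and was 4 without both (3.4%). Without both it was also 1 in R-Scm 24 h against Scm (0.683% of all genes), where DESeq2 called 1 as well (1.25%). Without both, the count was 1 in S-Rcm 24 h against Rcm (0.721%) and 3 in R-Scm 12 h against S-Rcm 12 h (3.58%). The count for the interaction at 24 h was 2 without both (4.52%), 0 to 3 without single libraries and 1 by DESeq2 (3.25%).

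Among pathway genes the 4 in Rcm against Scm were 10 with the compared groups alone. They were 8 by DESeq2 (3.31% of all genes) and 9 without both first replicates (3.28%). The 6 at R-Scm 12 h were 11 by DESeq2 (3.84%), 12 without both (3.74%) and 3 to 6 without single libraries (1.76% to 2.67%). The 0 at R-Scm 24 h were 13 without both (3.4%) and 0 to 12 without single libraries (0.0891% to 3.19%). The 1 at S-Rcm 12 h was 2 with a minimum of 10 counts in every library and 6 with the compared groups alone. It was 5 by DESeq2 (1.89%), 5 without both (1.65%) and 0 to 1 without single libraries (0.229% to 0.484%). The 2 at S-Rcm 24 h were 5 with the compared groups alone and 4 by DESeq2 (0.952%). They were 4 without both (0.325%) and 0 to 1 without single libraries (0.0382% to 0.178%).

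Of 1329 single-gene values, 33 changed sign and 23 passed the threshold in the alternative alone. Every sign change came with libraries left out. Of these, 8 were in comparisons given without a test, where the log2 values ranged from -0.0021 to 0.20 for Mmp14 and -0.039 to 0.12 for Timp2 (R-Scm 12 h against Rcm), -0.22 to 0.081 for Mmp9 (S-Rcm 12 h against Scm), -0.035 to 0.13 for Timp2 (R-Scm 24 h against 12 h) and -0.32 to 0.27 for Timp3 (S-Rcm 24 h against 12 h). The other 25 were in tested comparisons. Their log2 values ranged, in Rcm against Scm, from -0.16 to 0.052 for Mmp13. In R-Scm 24 h against Rcm the range for Timp3 was -0.42 to 0.37. In S-Rcm 24 h against Scm it was -0.25 to 0.24 for Mmp3, -0.46 to 0.051 for Mmp10 and -0.048 to 0.061 for Timp2. In R-Scm 24 h against Scm it was -0.17 to 0.039 for Mmp2, -0.15 to 0.44 for Mmp3 and -0.081 to 0.19 for Timp1. In S-Rcm 24 h against Rcm Mmp2 ranged from -0.035 to 0.028, and in R-Scm 12 h against S-Rcm 12 h Mmp9 from -0.28 to 0.14 and Mmp14 from -0.20 to 0.0035. In the interaction Mmp13 ranged from -0.26 to 0.60 and Mmp14 from -0.042 to 0.10. None of the tested values that changed sign was a DEG. Leaving out libraries also leaves fewer samples for the shared spread, and the cause was not tested further.

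Deviations of same-numbered libraries correlated by -0.196 to 0.346, and in 0 of 11 pairs of groups was every correlation over 0.1. By that rule replicate numbers did not pair the samples. Rcm and R-Scm 24 h came closest, at 0.0845, 0.159 and 0.346 for same numbers and -0.219 to 0.0704 for different numbers. Whether these groups alone were paired was not tested. Numbers follow the labels, from which the count columns differ in part for R-Scm 12 h and both groups at 24 h. A replicate block moved the count among the 9 in Rcm against Scm from 0 to 1 (Mmp9, -1.22, adjusted p = 0.0452 by edgeR) and no other count by over 1.5 times. Mmp9, at 5 to 22 counts, is limited by depth.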
